A study of Bos taurus with 6 samples.

Results

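COL2A1, COL11A1 and SOX9 are genes that cartilage cells use, and their transcripts were compared between adult and embryonic longissimus muscle of Qinchuan cattle. The 3 genes were chosen by their symbol, with their FPKM values in these same data already known, so their own difference between the stages is a description and carries no test. They are 3 of the 5206 gene symbols, on 5288 transcripts, in the table of transcripts that the authors called different between the stages. Each of the 3 genes has 1 listed transcript. RNA was sequenced from longissimus muscle of 3 adult animals, 24 months old, and of 3 embryos, 90 days old, all of the Qinchuan breed and collected at a local slaughterhouse. The labels name no treatment, and a piece of such muscle holds fat, vessels, nerve and connective tissue beside its fibres. The table gives FPKM, mapped fragments scaled by exon length and by all mapped fragments, as 1 value per stage for each transcript. Values of single animals were not analysed here, so the spread within a stage is unknown, as is the number of fragments behind a value.

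Cartilage forms when mesenchymal cells condense and become chondrocytes. SOX9 is the transcription factor that this step requires, and in mouse it directly activates the gene for type II collagen. COL2A1 encodes the only chain of type II collagen, the main fibrillar collagen of cartilage. COL11A1 encodes a chain of type XI collagen, which lies within the type II fibrils and limits their diameter. None of these genes is restricted to cartilage. COL2A1 is also active in the notochord, COL11A1 in other embryonic connective tissue, including tendon, and SOX9 in neural crest, in glia and in several embryonic epithelia.

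Each of the cartilage genes was lower at the adult stage. COL2A1 had an FPKM of 0.0313 at the adult stage and 9.98 at the embryonic stage, a log2 fold change (adult over embryo) of -8.32 and a 319-fold lower adult level. COL11A1 had 0.106 at the adult stage and 4.07 at the embryonic stage, a log2 fold change of -5.26 and a 38.3-fold lower adult level. SOX9 had 0.491 at the adult stage and 5.02 at the embryonic stage, a log2 fold change of -3.36 and a 10.2-fold lower adult level. For these bulk samples, fewer cells of a type and less RNA per cell cannot be told apart. Of all listed transcripts, 9.68% were at least 2-fold lower and 90.3% at least 2-fold higher at the adult stage, and 2.71 was the median log2 fold change, taken over 5248 transcripts with a nonzero value at each stage. The genes were chosen for this difference, so nothing is read from their 3 of 3 against that background. Scaling the stages in 3 other ways lowered every log2 fold change, by 3.25 with equal FPKM totals, by 3.77 with the listed housekeeping transcripts as the baseline and by 2.31 with the listed ribosomal protein transcripts. A transcript that was lower at the adult stage stayed lower under these scalings, and one that was higher by less than the shift became lower. The paper also reports that a smaller share of mapped reads fell in exons, and a larger share in introns, in embryonic than in adult samples. The part of this in the FPKM differences between the stages was not tested.

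**Figure D1:**
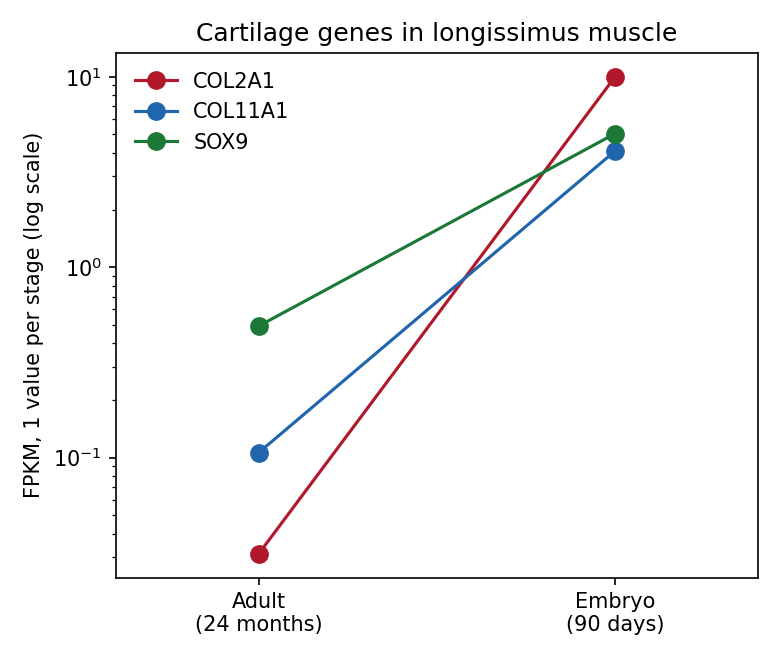
FPKM of COL2A1, COL11A1 and SOX9 (log axis) at the adult stage (24 months, left) and the embryonic stage (90 days, right), with 1 deposited value per stage and no error bars. The lines cross: SOX9 is uppermost at the adult stage with 0.491 and COL2A1 at the embryonic stage with 9.98.

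The order of the 3 genes was not the same at the stages. At the adult stage SOX9 was the highest, followed by COL11A1 and COL2A1. At the embryonic stage COL2A1 was the highest, followed by SOX9 and COL11A1. Ratios between genes of the same stage need no scaling between the stages, and FPKM allows such ratios because it is set per exon length. COL2A1 stood at 0.0638 times the SOX9 FPKM at the adult stage and at 1.99 times the SOX9 FPKM at the embryonic stage. COL2A1 over COL11A1, the chains that share a fibril in cartilage, was 0.294 at the adult stage and 2.45 at the embryonic stage. COL11A1 over SOX9 was 0.217 at the adult stage and 0.810 at the embryonic stage. Without a pseudocount, the collagen chains were thus lower relative to the transcription factor at the adult stage, COL2A1 more so than COL11A1. The adult ratios rest on very low FPKM values. With 1 FPKM added to both stages, the log2 fold changes are -3.41 for COL2A1, -2.20 for COL11A1 and -2.01 for SOX9. Those of COL11A1 and SOX9 then lie close together. Because no spread is known, it was not tested whether neighbours in these orders differ.

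The levels of the cartilage genes were moderate at the embryonic stage and among the lowest of the table at the adult stage. The embryonic FPKM of COL2A1 was above that of 88.0% of the listed transcripts, that of SOX9 above 77.1% and that of COL11A1 above 72.5%. At the adult stage, 0.700% of the listed transcripts had a lower FPKM than COL2A1, 1.32% a lower FPKM than COL11A1 and 4.60% a lower FPKM than SOX9. Those shares include 30 transcripts listed at 0 in the adult. Since 90.3% of the listed transcripts were higher at the adult stage, a transcript that was lower there tends towards such places. Among the 512 transcripts lower at the adult stage, 76.4% had a lower embryonic FPKM than COL2A1, 62.3% than SOX9 and 56.8% than COL11A1. The median adult FPKM of these 512 was 0.555, close to the 0.491 of SOX9. Only 7 transcripts had an adult FPKM above 0 and below that of COL2A1. By log2 fold change, COL2A1 was in place 4, COL11A1 in place 23 and SOX9 in place 102 among the 482 transcripts that were lower at the adult stage and above 0 in both stages. The median of these 482 was -2.12. The size of the COL2A1 and COL11A1 ratios rests on very low adult values, and with 1 FPKM added to both stages their log2 fold changes are -3.41 and -2.20.

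**Figure D2:**
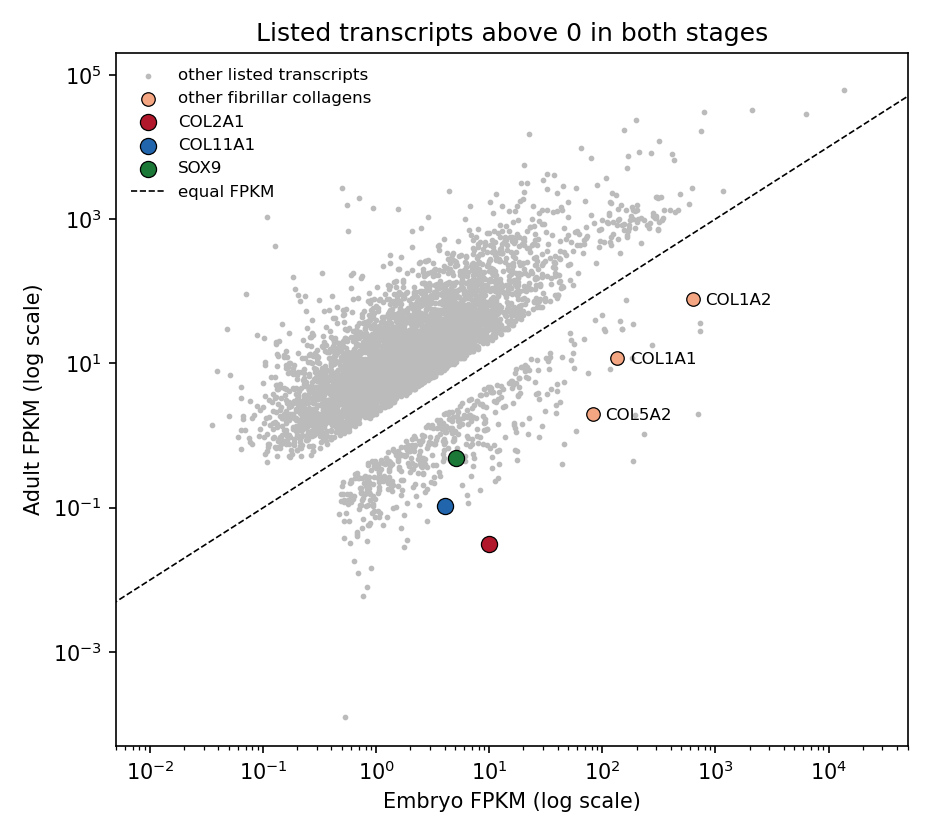
Adult FPKM (vertical) against embryonic FPKM (horizontal), both on log axes, for the 5248 listed transcripts above 0 in both stages. The cartilage genes lie below the dashed line of equal FPKM, COL2A1 farthest from it, and the band along the line is empty because listed transcripts are at least 2-fold apart.

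The label of cartilage was checked against 11 cartilage markers. Of these, COL2A1, COL11A1, SOX9 and ACAN are listed, and none of the 4 was at 0 at either stage. ACAN, which encodes aggrecan, the large proteoglycan of cartilage, had an FPKM of 0.0528 at the adult stage and 0.749 at the embryonic stage. The 4 listed markers summed to 0.682 FPKM at the adult stage and to 19.8 FPKM at the embryonic stage, and COL2A1 made up about as much of the embryonic sum as the others together. Since 3 of the 4 are the chosen genes themselves, only ACAN could add to the check of the label. ACAN was below 1 FPKM at both stages and has a row only because it was called different. No support for the label is drawn from it. The other 7 markers have no row: COL9A1, COL9A2 and COL9A3, which form type IX collagen on the fibril surface, COL11A2, the partner chain of COL11A1, HAPLN1, the link protein, and the matrix proteins MATN1 and COMP. The table lists only called transcripts, so a symbol without a row gives no level. The lowest embryonic FPKM of a transcript listed as lower in the adult was 0.470. Type II and type XI collagen transcripts, and aggrecan transcripts at a low level, were therefore present in the embryonic samples. Type IX collagen, the link protein and the matrilin could not be examined.

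The label of muscle was checked in the same way, and each of its listed markers lay above the cartilage genes at both stages. Of 7 muscle markers, CKM, DES, MYOG, MYLPF and TNNC2 are listed, and they summed to 76895 FPKM at the adult stage and 3497 FPKM at the embryonic stage. The highest but one in the adult was MYLPF, a regulatory light chain of fast myosin, at 30372 at the adult stage and 784 at the embryonic stage. COL2A1 stood at 1.27% of the MYLPF level in the embryo. MYOG, the myogenic factor myogenin, was the lowest of the 5, with 48.6 at the adult stage and 19.0 at the embryonic stage, an embryonic level not far above COL2A1. In a wider list of 20 muscle symbols, some transcripts lay below COL2A1 in the embryo, such as MYH7, the slow myosin heavy chain, with 60.8 at the adult stage and 0.450 at the embryonic stage.

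Among genes of the chondrocyte matrix, 5 of 24 symbols are listed. Of their 5 transcripts, with a median log2 fold change of -4.998, 4 were lower at the adult stage, beside 9.68% of all listed transcripts. COL2A1, COL11A1 and ACAN are described above. CILP2, a relative of the cartilage intermediate layer protein, had an FPKM of 0.0515 at the adult stage and 1.65 at the embryonic stage (log2 fold change -4.998). CILP, the cartilage intermediate layer protein itself, was the exception with 5.63 at the adult stage and 0.429 at the embryonic stage (log2 fold change 3.71), a direction that turned with the housekeeping baseline. Both CILP genes are also used outside cartilage. Of the 5 transcripts, 2 are the members themselves, so the count is not independent of the choice of genes.

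Before any scaling, 1 of the 3 listed chondrogenic transcription factors, SOX9, was lower at the adult stage, beside 9.68% of all listed transcripts. Of 13 symbols, SOX9, BARX2 and TBX18 are listed. BARX2, a homeobox factor of cartilage condensations that also acts in muscle precursors, had 2.05 at the adult stage and 0.854 at the embryonic stage (log2 fold change 1.26). TBX18, a T-box factor of the somites, had 0.766 at the adult stage and 0.365 at the embryonic stage (log2 fold change 1.07). Both were lower at the adult stage under each of the 3 scalings, so their direction is not settled. SOX5 and SOX6, the usual partners of SOX9 in chondrocytes, have no row, nor has RUNX2, the factor of hypertrophic chondrocytes and osteoblasts.

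Within the SOX family, SOX9 was compared with its close relatives. SOX10, which marks neural crest and Schwann cells, had 0.0846 at the adult stage and 0.907 at the embryonic stage (log2 fold change -3.42). SOX9 over SOX10 was 5.81 at the adult stage and 5.54 at the embryonic stage, a nearly equal proportion. SOX8, the other member of this subgroup, had 0.933 at the adult stage and 4.81 at the embryonic stage (log2 fold change -2.37). SOX18, a factor of endothelial cells, had 3.67 at the adult stage and 8.42 at the embryonic stage (log2 fold change -1.20). SOX8 was about level with SOX9 in the embryo, at a SOX9 over SOX8 ratio of 1.04, and above it in the adult, at a ratio of 0.526. A current reference annotation of cattle also gives the name SOX9 as a synonym of SOX10, but the SOX9 and SOX10 rows used here have separate Ensembl genes.

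SOX9 is also expressed in cells of the neural crest lineage. In a Schwann cell and neural crest list, 3 of the 4 listed transcripts were lower at the adult stage, beside 9.68% of all listed transcripts. The listed Schwann cell markers SOX10, ERBB3 and NGFR summed to 0.689 FPKM at the adult stage and to 18.9 FPKM at the embryonic stage, with none at 0. ERBB3, a neuregulin receptor, had 0.401 at the adult stage and 12.3 at the embryonic stage, and NGFR, the low-affinity neurotrophin receptor, had 0.203 and 5.76 in the same order of stages. Of 3 tendon markers, TNMD, the tendon membrane protein tenomodulin, is listed, with 0.142 at the adult stage and 0.636 at the embryonic stage, whereas SCX and MKX have no row. The members of these lists that went the other way were PMP2, a fatty acid binding protein of Schwann cells, with 1.47 at the adult stage and 0.122 at the embryonic stage, and OGN, the small proteoglycan osteoglycin, with 14.5 at the adult stage and 5.71 at the embryonic stage. PMP2 turned with the housekeeping baseline and OGN under each scaling. The bone markers SP7, BGLAP and IBSP have no row. SPP1, an osteoblast and macrophage phosphoprotein from a wider list of 11 bone symbols, had 0.747 at the adult stage and 11.1 at the embryonic stage. The part of these cell types in the SOX9 and COL11A1 levels was not tested.

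COL2A1 and COL11A1 belong to the fibrillar collagens, which assemble into the striated fibrils of connective tissue. All 5 listed members of this family were lower at the adult stage, beside 9.68% of all listed transcripts. Of 11 symbols of the family, COL1A1, COL1A2, COL2A1, COL5A2 and COL11A1 are listed, with a median log2 fold change of -5.26. COL1A1 and COL1A2, the chains of type I collagen of skin, tendon and perimysium, had 11.9 and 78.7 FPKM at the adult stage and 136 and 630.2 FPKM at the embryonic stage. Their log2 fold changes were -3.52 for COL1A1 and -3.002 for COL1A2. COL5A2, a chain of the type V collagen that sits inside type I fibrils, had 1.98 at the adult stage and 81.9 at the embryonic stage (log2 fold change -5.37). Without a pseudocount, COL2A1 thus had the lowest log2 fold change of the 5, while that of COL11A1 was close to that of COL5A2. The members of this list include the cartilage chains chosen for their difference.

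Set against type I collagen, the cartilage genes separated from each other. COL2A1 stood at 0.0398% of the COL1A2 FPKM at the adult stage and at 1.58% at the embryonic stage, 39.8 times more in the embryo. COL11A1 stood at 0.135% of COL1A2 at the adult stage and at 0.646% at the embryonic stage, 4.78 times more in the embryo. SOX9 stood at 0.624% of COL1A2 at the adult stage and at 0.797% at the embryonic stage, 1.28 times more in the embryo. With COL5A2 as the denominator, the COL2A1 percentage was 1.58 at the adult stage and 12.2 at the embryonic stage. For COL11A1 it was 5.37 at the adult stage and 4.97 at the embryonic stage, and for SOX9 24.8 at the adult stage and 6.14 at the embryonic stage, so that the direction turned for COL11A1 and SOX9. Within the summed FPKM of the 5 listed fibrillar collagens, COL2A1 accounted for 0.0338% at the adult stage and 1.16% at the embryonic stage. COL11A1 accounted for 0.115% of this sum at the adult stage and 0.472% at the embryonic stage. Without a pseudocount, only COL2A1 was lower at the adult stage relative to each of COL1A1, COL1A2 and COL5A2. SOX9 over COL1A1 was 4.14% at the adult stage and 3.70% at the embryonic stage, and COL11A1 over COL5A2 turned as given above. The COL2A1 percentages rest on an adult FPKM of 0.0313. With 1 FPKM added to both stages, the COL2A1 log2 fold change is -3.41 in place of -8.32. The ratios to other collagens were not rerun with that addition, so this separation is not settled.

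**Figure D3:**
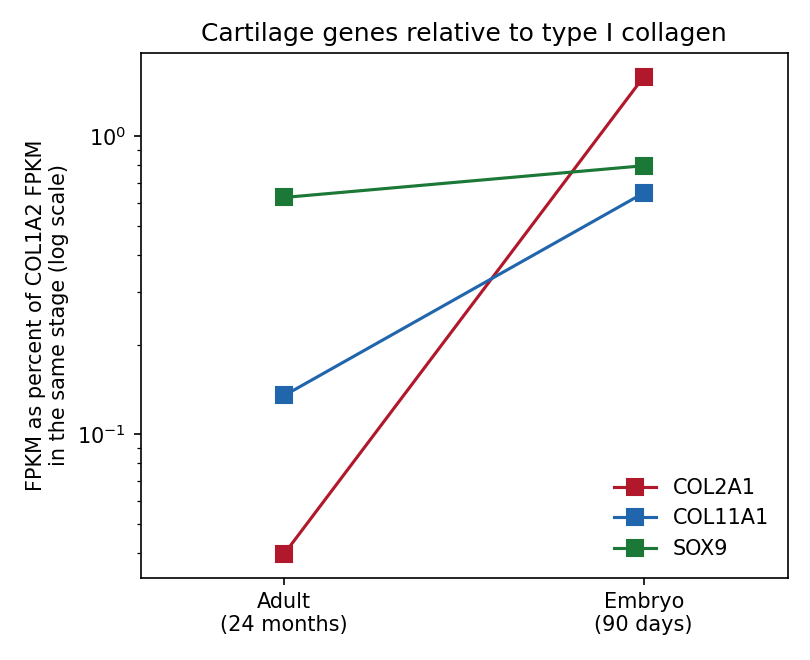
FPKM of COL2A1, COL11A1 and SOX9 as a percentage of the COL1A2 FPKM of the same stage (log axis), at the adult stage (left) and the embryonic stage (right), 1 value per stage and no pseudocount. The line of COL2A1 is the steepest, with 0.0398% at the adult stage against 1.58% at the embryonic one, whereas that of SOX9 is nearly flat, with 0.624% against 0.797%.

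Genes that fold, trim and crosslink collagen chains were mixed. Of 25 symbols, 12 are listed with a transcript each, 8 (66.7%) lower and 4 higher at the adult stage. Over all listed transcripts 9.68% were lower. The median log2 fold change of the 12 was -1.14. ADAMTS14, a protease that removes the amino-terminal propeptide of fibrillar collagens, had 0.0341 at the adult stage and 0.829 at the embryonic stage (log2 fold change -4.60). P3H2, a prolyl 3-hydroxylase listed under an older name, had 0.711 at the adult stage and 6.70 at the embryonic stage (-3.24). SERPINH1, the collagen chaperone, had 40.0 and 86.7 in the same order of stages (-1.12), and PCOLCE, an enhancer of carboxy-terminal propeptide cleavage, had 21.7 and 68.6 (-1.66). In the other direction, PCOLCE2, a relative of PCOLCE, had 19.4 at the adult stage and 0.129 at the embryonic stage (log2 fold change 7.24). P4HA1, the catalytic subunit of prolyl 4-hydroxylase, had 14.3 and 2.84 (2.33), and LOXL4, a lysyl oxidase relative, had 1.43 and 0.332 (2.10). Under the scalings PCOLCE2 stayed higher, P4HA1 stayed higher only with the ribosomal baseline, and LOXL4 was lower under all 3.

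**Figure D4:**
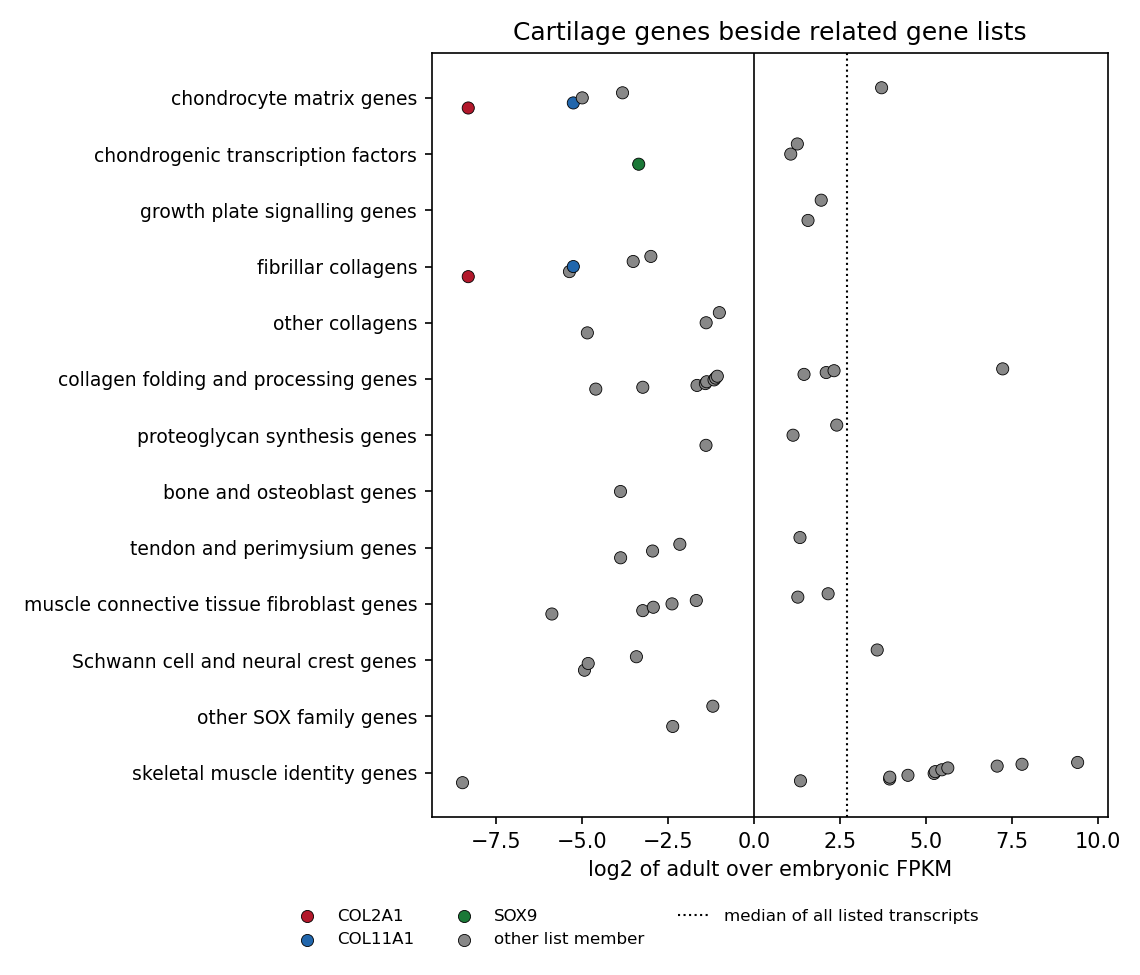
Log2 of adult over embryonic FPKM for the listed transcripts above 0 in both stages of 13 gene lists, with COL2A1, COL11A1 and SOX9 in colour, the other list members in grey and a dotted line at 2.71, the median of all listed transcripts. COL2A1 lies at -8.32, below the other listed fibrillar collagens, and the muscle list lies right of 0 apart from embryonic myosin.

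COL2A1 and COL11A1 share annotation that the choice by symbol did not use. The GO annotation gives COL2A1 41 terms and COL11A1 17 terms, of which 12 are shared, and 4 KEGG pathways are shared as well. The GO text of 206 transcripts, SOX9 among them, was not used here. Collagen fibril organization is carried by 10 transcripts, 9 lower and 1 higher at the adult stage, with a median log2 fold change of -3.67. The exception was ANXA2, an annexin singled out after its values were seen, with 88.6 FPKM at the adult stage and 39.3 at the embryonic stage, and it was lower under each scaling. Structural constituents of the extracellular matrix comprised 7 transcripts, all 7 lower, with a median of -4.06. Cartilage condensation is carried by 6 transcripts, 5 lower and 1 higher, with a median of -3.65, namely ACAN, COL2A1, COL11A1, ROR2 and FGF6 on the lower side and BARX2 on the higher, which turned under each scaling. In the deposited GO table, 11 of 29 background genes of cartilage condensation were called, or 37.9%, beside 4861 of 21673 for all genes, or 22.4%. These gene numbers are the authors’ and were not tested here, and the split into 5 and 1 covers only part of those 11 called genes. The KEGG label ECM-receptor interaction had 18 transcripts lower and 10 higher (median -1.40), and focal adhesion had 20 lower and 46 higher (median 1.69). Collagen had 13 transcripts lower and 2 higher (median -2.97), and extracellular matrix 35 lower and 21 higher (median -1.66). Protein digestion and absorption had 9 lower and 5 higher. Proteoglycan metabolic process had 2, COL2A1 and COL11A1 themselves, both lower. The remaining shared terms were mixed or mostly higher before any scaling. Skeletal system morphogenesis had 3 transcripts lower and 6 higher, sensory perception of sound 3 lower and 7 higher, visual perception 3 lower and 4 higher, and the KEGG label amoebiasis 10 lower and 16 higher. Cartilage development had 2 lower, which are COL2A1 and COL11A1, and 2 higher. The chosen collagens are counted in each shared term, beside 9.68% lower and 90.3% higher over all listed transcripts.

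Terms that name cartilage or chondrocytes were mixed in direction. They were found by the text cartilage or chondro, which also matches chondroitin, so terms on chondroitin are included. They are carried by 23 transcripts, 10 (43.5%) lower and 13 higher at the adult stage, beside 9.68% lower over all listed transcripts. Their median log2 fold change was 1.17 beside 2.71 over all transcripts. Apart from COL2A1, COL11A1, COL1A1 and ACAN, the lower ones included DPYSL3, a cytoskeletal protein of growing axons, with 1.24 at the adult stage and 9.41 at the embryonic stage. They also included ADAMTS7, a metalloprotease that cleaves COMP, with 0.165 at the adult stage and 2.71 at the embryonic stage, and ROR2, a WNT5A receptor of the growth plate, with 0.192 and 2.12 in the same order. THBS3, a thrombospondin of developing skeleton, had 1.59 and 6.90. FGF6, a growth factor of the myogenic lineage, had 0.685 and 2.15, and WNT5B, a Wnt ligand of growth plate chondrocytes, had 0.156 and 0.547. Among the higher ones, CARM1, an arginine methyltransferase with wide expression, had the highest adult FPKM, with 48.7 at the adult stage and 5.59 at the embryonic stage. B3GAT3, which builds the linker of proteoglycan chains, had 28.8 and 5.42 in the same order of stages. IMPAD1, a Golgi phosphatase needed for chondroitin sulfation, had 20.6 and 4.59, and CHST12, a chondroitin sulfotransferase, had 3.94 and 1.88. EFEMP1, the matrix protein fibulin-3, had the highest log2 fold change of the 23, with 8.08 and 0.289 (4.81). Under the scalings EFEMP1 stayed higher, CARM1 and B3GAT3 stayed higher only with the ribosomal baseline, IMPAD1 and CHST12 were lower, and the median of the 23 transcripts turned negative under each.

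The transcripts nearest to each cartilage gene in level were sought by the distance in log2 FPKM over the 2 stage values, which is all the likeness that the table allows. The 5 nearest to SOX9 lay within 0.353 log2 units, namely CREB3L1, a transcription factor of collagen secretion, GLIS2, a zinc-finger factor, TTYH2, a membrane protein, the gene described as NRADD and ADAMTS15, a metalloprotease. CREB3L1, the closest, had 0.462 FPKM at the adult stage and 4.48 at the embryonic stage. The 5 nearest to COL11A1 were HIF3A, a hypoxia-inducible factor subunit, SORCS2, a sorting receptor, KCNE1L, a potassium channel subunit, ADAMTS7 and GPR37, a receptor of glia and neurons, at distances of 0.665 to 0.906. COL2A1 had no close neighbour. Its 5 nearest were HIF3A, GPR37, COL11A1, KCNE1L and BEGAIN, at distances of 2.002 to 2.44. HIF3A, the nearest to both collagens, had 0.117 FPKM at the adult stage and 6.40 at the embryonic stage.

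The cartilage genes were also placed on the chromosomes, with positions as the file gives them on the bosTau7 build that the study names. COL2A1 lies on chromosome 5 at chr5:32450297-32481276. The file gives it the Ensembl gene ENSBTAG00000013155. All 5 listed transcripts within 1 Mb of it were higher at the adult stage, as were 90.3% of all listed transcripts. Of the 5, TMEM106C turned under each scaling and RPAP3 with the housekeeping baseline. The closest was TMEM106C, 4.90 kb away, with 3.58 FPKM at the adult stage and 1.05 at the embryonic stage. PFKM, the muscle phosphofructokinase, 113 kb away, had 1515 and 17.6 in the same order of stages, and the others were ASB8, SLC48A1 and RPAP3. COL11A1, as ENSBTAG00000021217, lies on chromosome 3 at chr3:40448546-40682012. The listed neighbour of COL11A1 was AMY2B, an amylase, 499 kb away, with 73.5 FPKM at the adult stage and 0.210 at the embryonic stage. SOX9, as ENSBTAG00000045824, lies on chromosome 19 at chr19:59492676-59494539, a locus of 1864 bp in the file. The listed neighbour of SOX9 was SDK2, a cell adhesion protein, 910 kb away and lower like SOX9, with 0.268 at the adult stage and 3.25 at the embryonic stage. With 90.3% of all listed transcripts higher at the adult stage, nothing is read from the direction of so few neighbours.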

How the data were processed

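RNA of 6 longissimus muscle samples, 3 adult and 3 embryonic, was depleted of ribosomal RNA and sequenced. The FPKM values deposited by the authors, 1 for each stage and transcript, came from reads cleaned by Trim Galore, an alignment to bosTau7 by TopHat2 2.0.14 and quantification by Cufflinks. The table holds only transcripts that the authors called (p under 0.05, all at least 2-fold apart), which removes stable genes and many low ones. The authors' log2 fold changes, p-values and q-values were not used, nor were the deposited GO tables of function and component. From the deposited GO table of processes, the numbers of genes per term were copied.

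Log2 fold changes were computed here as adult over embryonic FPKM, with no pseudocount and with pandas 2.3.3. With 1 value per stage no test was run, and the number of fragments behind a value is unknown, so no precision can be given. Alternatives were pseudocounts of 0.1 and 1, 3 scalings between the stages, an FPKM minimum of 1, genes in place of transcripts and other denominators. The 14 lists and the 3 genes were chosen with earlier results of these data known. Listed means a row under the symbol, an older symbol or the symbol in the description. Named were all listed members of a list up to 6. Otherwise the 6 with the largest log2 fold change in absolute value and the 2 with the highest embryonic FPKM were named. The cell type markers, the 5 nearest transcripts and every neighbour within 1 Mb were named as well. For terms naming cartilage, found by the text cartilage or chondro and so including chondroitin, up to 10 rows per direction were named. Some of these are counted without being named. Some cell type markers are not reported here. Functions were tested on simulated data.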

Additional observations from a re-analysis of the deposited data

How the results depend on the processing

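COL2A1, COL11A1 and SOX9 were lower in the adult under all 5 alternatives tried for them, but none of these could have turned their direction. A pseudocount keeps the sign of a ratio, and each of the 3 scalings lowered every ratio. Only the size of the log2 fold changes is informative here. With a pseudocount of 0.1 FPKM their log2 fold changes were -6.26, -4.34 and -3.12, and with 1 FPKM -3.41, -2.20 and -2.01. Scaling each stage to the same FPKM total, which lowers every value by 3.25, gave -11.57, -8.51 and -6.61. Centring on 22 listed housekeeping transcripts, by 3.77, gave -12.08, -9.03 and -7.12, and centring on 72 ribosomal protein transcripts, by 2.31, gave -10.62, -7.57 and -5.66. These shifts come from called transcripts alone, which were mostly higher in the adult. In the same order of the 5 settings, the median of the chondrocyte matrix genes was -3.53, -1.33, -8.25, -8.77 and -7.31, and that of the terms naming cartilage was 1.04, 0.72, -2.09, -2.60 and -1.14. The share of all transcripts lower in the adult was 64.9%, 75.9% and 39.7% under the 3 scalings. With an FPKM of at least 1 in the higher stage, the matrix median was -5.13, the cartilage term median 1.26 and the share of all 7.85%, and counted as genes that share was 9.55%. With COL5A2 in place of COL1A2 as the denominator, the log2 of the adult over the embryonic ratio was -2.95 in place of -5.32 for COL2A1, 0.11 in place of -2.26 for COL11A1 and 2.02 in place of -0.35 for SOX9. A ratio to COL3A1 was not run, since it has no row, and no ratio between genes was rerun with a pseudocount. Restriction to reference matches changed nothing, as all transcripts carry that class. No paired analysis was possible because the table gives 1 value per stage. The number of fragments behind the low adult values is unknown, so the size of the COL2A1 ratio in particular is uncertain.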

Other observations

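Beside the cartilage genes, the listed regulators of the growth plate were higher at the adult stage, as were 90.3% of all listed transcripts. Of 21 symbols, BMP2 and BMP5 are listed. BMP2, a bone morphogenetic protein, had 1.002 FPKM at the adult stage and 0.337 at the embryonic stage, and BMP5 had 2.75 and 0.707 in the same order of stages, but both were lower at the adult stage under each of the 3 scalings. Of 16 symbols of proteoglycan synthesis, B3GAT3, XYLT1 and PAPSS2 are listed. XYLT1, which starts the sugar chains of proteoglycans, had 0.729 at the adult stage and 1.92 at the embryonic stage. PAPSS2, which makes the sulfate donor and whose loss impairs the skeleton in mouse and human, had 0.608 at the adult stage and 0.276 at the embryonic stage, and it too was lower in the adult under each scaling.

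From a list of 20 collagens outside the fibrillar family, which does not hold every such gene, COL4A2, COL6A2 and COL18A1 are listed. These 3, with a median log2 fold change of -1.39, were lower at the adult stage, beside 9.68% of all listed transcripts. COL18A1, a basement membrane collagen, had 0.606 FPKM at the adult stage and 17.5 at the embryonic stage, while COL6A2 of the endomysium had 25.9 and 52.0. Among genes of muscle connective tissue fibroblasts, 6 of 8 transcripts were lower at the adult stage, beside 9.68% of all listed transcripts. The 6 were led by POSTN, the matrix protein periostin, with 0.770 at the adult stage and 45.4 at the embryonic stage. MFAP5, a microfibril protein, was higher, with 42.5 at the adult stage and 9.53 at the embryonic stage, and turned under each scaling. TNC, a matrix protein of developing tendon and muscle ends, has 2 listed transcripts, both lower, with 0.660 and 0.218 at the adult stage and 5.11 and 3.21 at the embryonic stage.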
